A study of Arabidopsis thaliana with 12 samples.

Results

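The 37 nuclear genes described here encode subunits of the photosynthetic electron transport chain of Arabidopsis thaliana. They were taken by gene identifier from a list, with no filter on their measured values, out of 31916 named genes in the deposited tables. The list was chosen with earlier results of these data known. The list holds 12 photosystem I genes, 14 photosystem II genes, 8 genes for mobile and membrane-bound electron carriers (2 each for cytochrome b6f, plastocyanin, leaf ferredoxin and leaf ferredoxin-NADP reductase) and 3 genes for the plastid ATP synthase. RNA was sequenced from whole seedlings in 12 libraries, 3 for each of 4 groups. All seeds spent 3 days at 4 °C, were given 12 h of light and were then grown for 4 days in darkness. The groups were wild type (Col) kept in the dark, wild type given 6 h of white light at the end, the mutant det1-1 kept in the dark and the mutant pifq kept in the dark. The det1-1 mutant carries an allele of DET1, whose product holds back light-type development in darkness. PIF1, PIF3, PIF4 and PIF5 are transcription factors that promote growth in the dark, and pifq carries mutations in all of them. The seedlings were sampled whole, so a value here averages cotyledons, hypocotyl and root, and fewer cells of a type cannot be told apart from less RNA per cell.

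Photosystem II takes electrons from water, with an oxygen-evolving cluster on the lumen side of the thylakoid membrane that is shielded by the extrinsic proteins PSBO, PSBP and PSBQ. Electrons pass through the cytochrome b6f complex to plastocyanin, then to photosystem I, ferredoxin and ferredoxin-NADP reductase, while the proton gradient drives the ATP synthase. The reaction-centre proteins are encoded in the plastid, and most peripheral and regulatory subunits are encoded in the nucleus and imported. A dark-grown seedling holds etioplasts, which lack a working chain, and light starts their conversion into chloroplasts.

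The values are FPKM as the authors computed it (fragments mapped to a gene, divided by transcript length and by library size), with a single value for each gene and group. Each of the 3 tables sets light, det1-1 or pifq against the dark wild type, which appears in every table with values that differ between tables, widely for some genes. No value has a spread between its 3 libraries, the read depth is unknown, and no comparison below has a replicate check or a p-value. A gene was analysed in a table where it had a single entry that the authors' program had compared, both groups were above 0, the higher group reached 1 FPKM and its dark values matched within 1.5-fold over the tables after scaling. It was called higher or lower at 2-fold, a size rule that stands in for a test. As a check of the mutants, pifq held 0.802 FPKM of PIF3 against 30.2 FPKM in the dark wild type, and 1.39 FPKM of PIF5 against 9.44 FPKM. PIF1 (19.2 FPKM in the wild type and 23.7 in pifq) and, in det1-1, DET1 (15.1 and 16.7 FPKM) were close to wild type, so the transcript level says nothing of those mutations. PIF4 was 20.9 FPKM in pifq against 20.5 in the wild type of that table, but the wild type was 11.2 and 10.4 FPKM in the light and det1-1 tables.

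Each table held 34 of the 37 genes. PSBP1, PETE1 and PETE2 had no row in the light and det1-1 tables, and PSAD1, PSAN and PETC had none in the pifq table. The dark values of PSBS and PSB28 differed between tables by 1.52-fold and 1.84-fold and put both outside the tolerance. The next widest, LFNR2, differed by 1.28-fold and stayed inside it. PSBP2 did not reach 1 FPKM in the light and det1-1 tables, and the program made no comparison of PSBW in the det1-1 table. This left 31 analysed genes in light, 30 in det1-1 and 32 in pifq, of which 27 were analysed in every table. The genes lie on all 5 chromosomes, 16 of them on chromosome 1 and 10 on chromosome 4, and 12 overlap another protein-coding gene in the RefSeq annotation of TAIR10.1.

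After 6 h of light, 25 of 31 analysed genes were at least 2-fold above dark wild type, beside 12.4% of all genes analysed in that table. In dark det1-1 30 of 30 were higher, beside 17.3% of all genes, and in dark pifq 30 of 32, beside 12.9%. The pifq count includes PSBP2, which passed the 1 FPKM minimum only through its pifq value of 2.10 FPKM. None was 2-fold lower in any table, where 10.1%, 9.71% and 13.2% of all genes were lower in light, det1-1 and pifq. Many of the differences were large: at least 4-fold for 16 genes in light, 26 in det1-1 and 26 in pifq, beside 4.11%, 6.76% and 3.78% of all genes. The median log2 ratio over the analysed members was 2.05 in light, 2.89 in det1-1 and 3.19 in pifq, or 4.15-fold, 7.39-fold and 9.09-fold, while the medians over all genes were 0.02, -0.03 and 0.01. Summed over the 30 members with a row in every table other than PSBP2, FPKM went from 5035 to 17290.3 in the light table, from 4667 to 34955 in the det1-1 table and from 4905 to 35555 in the pifq table.

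**Figure D1:**
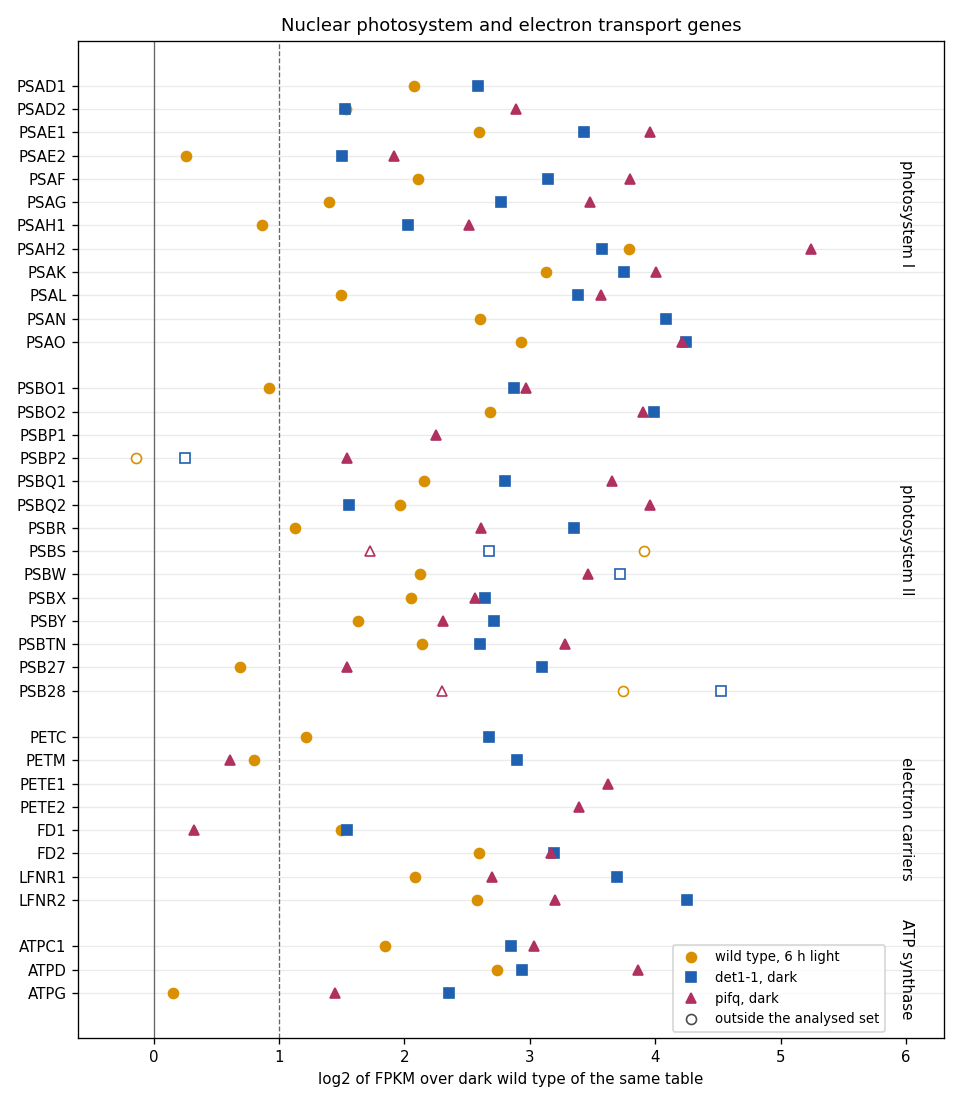
Log2 ratio of the authors' FPKM in light, det1-1 and pifq over dark wild type (horizontal axis) for each of the 37 genes, grouped by complex; open symbols stand for values outside the analysed set. Nearly all filled symbols lie to the right of the 2-fold line, the light symbols are mostly the leftmost of a gene, and ATPG (0.16) and PSAE2 (0.26) in light and FD1 (0.32) in pifq lie nearest 0.

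The photosystem I genes were higher in 10 of 12 cases in light, 12 of 12 in det1-1 and 10 of 10 in pifq. Beside these counts stand 12.4%, 17.3% and 12.9% of all genes. The median log2 ratios of the complex were 2.09, 3.26 and 3.68. PSAF (AT1G31330), a subunit that helps plastocyanin dock at the lumen side, was 137 to 148 FPKM in dark wild type over the tables. It was 638 FPKM in light, 1217 in det1-1 and 2003 in pifq, which is 4.30-fold, 8.86-fold and 13.9-fold. PSAN (AT5G64040), a lumenal subunit with a role in the same docking, was 77.6 to 83.8 FPKM in dark wild type, 510.2 FPKM in light and 1318 FPKM in det1-1. Both docking genes were thus lowest in the dark and further from it in det1-1 than in light.

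PSAG and PSAK (AT1G30380) are related membrane proteins that lie where the antenna meets the core. PSAG (AT1G55670) was 217 to 234 FPKM in dark wild type, 618 in light, 1480.4 in det1-1 and 2539 in pifq, the highest level of any photosystem I gene in pifq. PSAK started lower, at 70.2 to 75.7 FPKM, and was 664 FPKM in light, 945 in det1-1 and 1182 in pifq. In light they ended at like levels, 2.64-fold and 8.77-fold above the dark.

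PSAH, PSAL and PSAO form the side of photosystem I at which light-harvesting complex II docks during state transitions. PSAL (AT4G12800) was 109.7 to 118.3 FPKM in dark wild type, 333 in light, 1143 in det1-1 and 1363 in pifq, or 2.81-fold, 10.4-fold and 11.9-fold. PSAO (AT1G08380) was 73.2 to 79.0 FPKM in the dark, 602 in light, 1389 in det1-1 and 1428 in pifq, or 7.62-fold, 19.0-fold and 18.6-fold. The det1-1 and pifq levels of PSAO lay within a few percent of each other, and each was more than the light level.

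PSAD and PSAE sit on the stromal side, where ferredoxin is reduced, and each is encoded by 2 genes. PSAD1 (AT4G02770) was 111 and 119 FPKM in dark wild type of its 2 tables, 505 FPKM in light (4.23-fold) and 664 FPKM in det1-1 (6.00-fold). PSAD2 (AT1G03130) was 97.3 to 105 FPKM in the dark, 304 in light (2.90-fold), 281 in det1-1 (2.89-fold) and 752 in pifq (7.40-fold). PSAD2 and PSAH2 were the photosystem I genes whose FPKM, not scaled between tables, was lower in det1-1 than in light. By log2 ratio over dark wild type PSAD2 was level, at 1.53 in both, and PSAH2 was 3.57 in det1-1 against 3.79 in light.

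The gene pairs for PSAE and PSAH each held a copy that was higher in the dark and had the smaller ratio in every table, and a copy that was lower in the dark and had the larger ratio. PSAE2 (AT2G20260) was 236 to 255 FPKM in dark wild type, 304 in light (1.19-fold), 669.5 in det1-1 (2.83-fold) and 931 in pifq (3.77-fold). PSAE1 (AT4G28750) was 81.1 to 101.1 FPKM in the dark, 609 in light (6.03-fold), 1013 in det1-1 (10.8-fold) and 1263 in pifq (15.6-fold). PSAE1 was thus the lower copy in the dark and the higher copy in light, det1-1 and pifq.

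PSAH1 (AT3G16140) was 187 to 202 FPKM in dark wild type, 368 in light (1.83-fold), 764 in det1-1 (4.09-fold) and 1117 in pifq (5.71-fold). PSAH2 (AT1G52230) was 28.8 to 31.1 FPKM in the dark, 430.4 in light (13.9-fold), 343 in det1-1 (11.9-fold) and 1119 in pifq (37.8-fold). Its log2 ratios of 3.79 in light and 5.24 in pifq were the largest among the analysed members in those tables. In TAIR10.1 PSAH1 spans chr3:5467987-5469594 (-) and PSAH2 spans chr1:19454798-19455668 (+), exons and introns included. In pifq the copies were level, at 1117 and 1119 FPKM. PSAH2 overlaps AT1G52240 in the annotation, a gene listed at 32.6 FPKM in dark wild type and at 8.86 FPKM after light, at 30.2 and 24.5 FPKM in the det1-1 table, and at 12.2 and 7.98 FPKM in the pifq table. Strand use in the counting is not stated, so reads could be shared between the overlapping genes.

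The bases just before the annotated starts are printed for a few genes, picked by their log2 ratios summed over the 3 comparisons. Among members analysed in every table, PSAH2 and PSAO have the largest sums and PSAE2 and FD1 the smallest. PSAH1 was added as the other copy of PSAH after the values were seen. The bases were read from the RefSeq genome TAIR10.1 within 250 bases of the start, cut to bases outside other annotated genes, and are written along the gene's strand. Positions are chr1:19454766-19454797 (+) for PSAH2, chr1:2641935-2642071 (-) for PSAO, chr2:8736598-8736733 (+) for PSAE2 and chr3:5469595-5469844 (-) for PSAH1. No base before FD1 lay outside other genes, so none is shown. Capitals mark CACGTG, the G-box to which PIFs and HY5 are known to bind, or a lone ACGT core.
PSAH2: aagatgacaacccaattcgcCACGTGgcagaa
PSAO: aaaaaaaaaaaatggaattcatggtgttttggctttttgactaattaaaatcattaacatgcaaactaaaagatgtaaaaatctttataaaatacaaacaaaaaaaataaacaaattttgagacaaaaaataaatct
PSAE2: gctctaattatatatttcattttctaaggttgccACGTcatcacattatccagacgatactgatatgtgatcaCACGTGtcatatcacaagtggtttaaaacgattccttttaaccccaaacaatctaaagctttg
PSAH1: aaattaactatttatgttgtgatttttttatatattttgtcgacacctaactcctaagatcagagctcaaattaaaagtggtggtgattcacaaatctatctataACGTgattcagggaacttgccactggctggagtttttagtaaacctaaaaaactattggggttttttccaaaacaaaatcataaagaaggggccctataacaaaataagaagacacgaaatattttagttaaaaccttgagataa

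PSAH2 holds CACGTG at -12 to -7 from its start, and again at -67 to -62 inside the neighbouring gene, while PSAH1 holds only an ACGT core, at -145 to -142. PSAE2, a gene with small ratios, also holds CACGTG, at -63 to -58, and PSAO, a gene with large ratios, holds no ACGT in its window. Over the 250 bases before the start, on both strands and whatever else is annotated there, CACGTG was found for 8 of 37 members (21.6%) and 6.49% of 27443 nuclear protein-coding genes. The 8 were PSAH2, PSAE2, PSBP2, PSBQ1, PSBQ2, PSBTN, PSB28 and ATPD, with none among the electron carriers. ACGT, which CACGTG contains, was found for 20 members (54.1%) and 44.1% of all genes. GATAAG, the letters that GATA factors are known to bind, was found for 10 members (27.0%) and 12.3% of all genes, and CCAATC for 5 members (13.5%) and 10.2%. These are matches of letters, and no binding was measured.

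The photosystem II genes were higher in 8 of 10 cases in light, 9 of 9 in det1-1 and 12 of 12 in pifq. Their median log2 ratios were 2.01, 2.80 and 2.79. Beside these counts and those of the extrinsic proteins stand 12.4%, 17.3% and 12.9% of all genes. The genes of the oxygen-evolving extrinsic proteins were higher in 3 of 4 analysed cases in light, 4 of 4 in det1-1 and 6 of 6 in pifq. Both pifq counts include PSBP2, which passed the 1 FPKM minimum only through its pifq value, so its call there is no independent case. PSBO1 (AT5G66570), the main copy of the protein that stabilises the manganese cluster, was 306 to 329.8 FPKM in dark wild type. It was 624 FPKM in light (1.89-fold), 2245 in det1-1 (7.35-fold) and 2515 in pifq (7.83-fold). PSBO2 (AT3G50820), the minor copy, was 27.5 to 29.6 FPKM in the dark, 189.7 in light (6.40-fold), 437 in det1-1 (15.9-fold) and 431 in pifq (14.9-fold). PSBO1 stayed the higher copy in every group, although PSBO2 had the larger ratio in every table.

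PSBP1 (AT1G06680), which retains calcium and chloride at the cluster, had a row in the pifq table alone, with 306 FPKM for the wild type and 1459 FPKM for the mutant (4.77-fold). AT1G06670, a gene annotated as overlapping it, was 322 and 639.8 FPKM in dark wild type and light and 298 and 1417 FPKM in dark wild type and det1-1. In the pifq table, where PSBP1 has its own row, AT1G06670 was 8.68 and 15.3 FPKM. AT1G06670 thus stood near the PSBP1 level only in the tables without a PSBP1 row, and how the tables assigned the locus was not tested. PSBP2 (AT2G30790) was at the edge of detection, at 0.674 to 0.727 FPKM in dark wild type, 0.660 in light, 0.800 in det1-1 and 2.10 in pifq. Its annotated coding sequence is 378 bases long, against 792 for PSBP1.

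PSBQ helps PSBP hold its ions and is encoded by 2 genes that differed between det1-1 and pifq. PSBQ1 (AT4G21280) was 70.4 to 75.9 FPKM in the dark, 339 in light, 489.99 in det1-1 and 932.2 in pifq, or 4.46-fold, 6.96-fold and 12.6-fold. PSBQ2 (AT4G05180) was 47.7 to 51.4 FPKM in the dark, 201 in light, 140.5 in det1-1 and 789 in pifq, or 3.90-fold, 2.95-fold and 15.6-fold. The det1-1 level of PSBQ2 was below its light level and its pifq level was far above both.

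The small subunits PSBR (AT1G79040), PSBW (AT2G30570), PSBX (AT2G06520), PSBY and PSBTN (AT3G21055) were all higher wherever they were analysed, 5 of 5 in light, 4 of 4 in det1-1 and 5 of 5 in pifq, with medians of 2.05, 2.68 and 2.61. Beside these counts stand 12.4%, 17.3% and 12.9% of all genes. PSBR, which helps PSBP and PSBQ assemble, was the most abundant member in dark wild type, at 648 to 699 FPKM. It was 1528 FPKM in light (2.19-fold), 6605 in det1-1 (10.2-fold) and 4135 in pifq (6.11-fold). Ranked by FPKM among 29872 nuclear genes, PSBR went from rank 128 in dark wild type to rank 2 in det1-1. In the light table its rank went from 140 to 49, and in the pifq table from 142 to 9 among 30266. PSBR, at chr1:29735952-29737009 (+), overlaps AT1G79050 in the annotation, which was under 20 FPKM in every group.

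PSBX, a membrane subunit beside cytochrome b559, was 363 to 392 FPKM in the dark, 1625 in light (4.15-fold), 2261 in det1-1 (6.23-fold) and 2247 in pifq (5.92-fold). PSBTN, a small lumenal subunit, was 295 to 318 FPKM in the dark, 1399.7 in light (4.41-fold), 1793 in det1-1 (6.09-fold) and 2997 in pifq (9.69-fold). PSBY (AT1G67740) was 129.8 to 139.9 FPKM in the dark, 433 in light (3.09-fold), 854 in det1-1 (6.58-fold) and 673 in pifq (4.96-fold). PSBW, which stabilises supercomplexes with the antenna, was 106 and 459.9 FPKM in dark wild type and light (4.35-fold) and 103 and 1136 FPKM in dark wild type and pifq (11.0-fold). Its deposited values in the det1-1 table were 98.0 and 1291 FPKM, with no comparison made by the program. PSBR and PSBY stood higher in det1-1 than in pifq, PSBTN stood higher in pifq, and PSBX was nearly level.

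PSB27 (AT1G03600) is a lumenal assembly and repair factor. It was 86.4 to 93.2 FPKM in the dark, 150.2 in light (1.61-fold), 737 in det1-1 (8.53-fold) and 265 in pifq (2.92-fold). PSB28 (AT4G28660), another assembly factor, was 12.9, 12.0 and 23.1 FPKM in the dark wild type of the light, det1-1 and pifq tables, and 173, 276 and 114 FPKM in the 3 groups. For both factors the det1-1 level was the highest of the 4 groups.

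PSBS (AT1G44575) senses lumen acidity and switches on the dissipation of excess light energy. Its dark wild type values were 58.3, 54.1 and 86.2 FPKM in the light, det1-1 and pifq tables, and its levels were 879 FPKM in light, 346 in det1-1 and 284 in pifq. The ratios were 15.1-fold, 6.39-fold and 3.30-fold, a description only, since the dark values lay just outside the tolerance. PSBS was the only gene of the 31 with a row in every table whose ratio was largest in light, next in det1-1 and smallest in pifq.

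**Figure D2:**
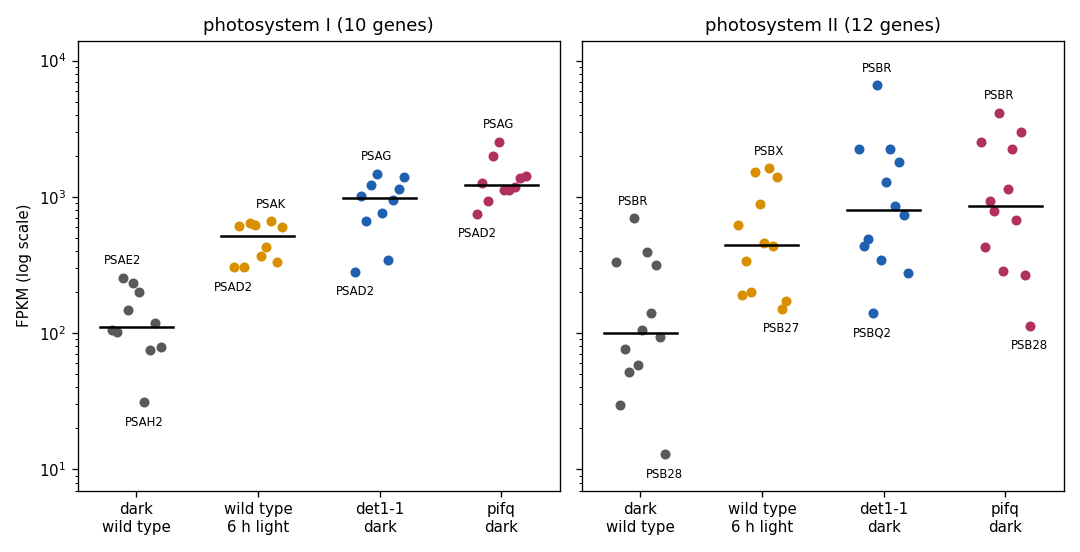
Authors' FPKM on a log10 axis for members with a row in every table, PSBP2 apart, by group and complex; each point is a gene and the line marks the median of the complex. Photosystem I points lie between 31.1 and 255 FPKM in dark wild type and between 304 and 664 FPKM in light, a narrower spread than photosystem II shows in any group.

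The 10 photosystem I genes with a row in every table spread over 31.1 to 255 FPKM in dark wild type, the highest 8.20 times the lowest. In light the same genes lay between 304 and 664 FPKM, a span of 2.18 times, with a median of 516 FPKM. The span was 5.27 times in det1-1, from 281 to 1480.4 FPKM, and 3.38 times in pifq, from 752 to 2539 FPKM. The SD of log2 FPKM over the 10 genes was 0.91 in the dark, 0.48 in light, 0.82 in det1-1 and 0.51 in pifq. FPKM is a level per transcript length, so these genes were closer to equal levels in light and pifq than in dark wild type. The 12 photosystem II genes ran from 12.9 to 699 FPKM in the dark wild type of the light table, 150.2 to 1625 in light, 140.5 to 6605 in det1-1 and 114 to 4135 in pifq. Their spans, each beside that of dark wild type in the same table, were 10.8 against 54.1 times in light, 47.0 against 54.1 times in det1-1 and 36.4 against 29.3 times in pifq. The lowest gene in the dark was PSB28, whose dark value differs between tables.

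The carrier genes were higher in 5 of 6 cases in light, 6 of 6 in det1-1 and 5 of 7 in pifq. Beside these counts stand 12.4%, 17.3% and 12.9% of all genes. The median log2 ratios were 1.79, 3.04 and 3.17, over unlike genes, since only pifq had PETE1 and PETE2 and it lacked PETC. On the 5 carriers analysed in every table the medians were 2.08, 3.19 and 2.70, so det1-1 was then above pifq. PETC (AT4G03280) encodes the Rieske iron-sulphur protein of cytochrome b6f. It was 109.7 and 118.3 FPKM in dark wild type of its 2 tables, 274 in light (2.32-fold) and 701 in det1-1 (6.39-fold). PETM (AT2G26500), a small subunit of the same complex, was 355 to 383 FPKM in the dark, 667 in light (1.74-fold), 2638 in det1-1 (7.44-fold) and 566 in pifq (1.53-fold). PETM, at chr2:11270082-11271074 (+), was below the 2-fold call in light and pifq, and its det1-1 level was far above the other groups.

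Plastocyanin, the lumenal copper protein, had rows in the pifq table alone. PETE1 (AT1G76100) went from 40.1 FPKM in the wild type to 495 FPKM in the mutant. PETE2 (AT1G20340), the major copy, went from 197 FPKM to 2071 FPKM (10.5-fold). Both copies were well past the call, with log2 ratios of 3.62 and 3.39.

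The leaf ferredoxins take electrons from photosystem I, and their 2 genes differed in response. FD1 (AT1G10960), the minor protein form, was 369 to 398 FPKM in dark wild type, 1122 in light (2.82-fold), 1072 in det1-1 (2.91-fold) and 484 in pifq (a log2 ratio of 0.32). FD2 (AT1G60950), the major leaf form, was 264 to 285 FPKM in the dark, 1724 in light (6.05-fold), 2409.85 in det1-1 (9.12-fold) and 2479 in pifq (8.98-fold). FD1 was the higher copy in the dark and FD2 in the other 3 groups. FD1, at chr1:3664187-3665040 (+), overlaps AT1G10950 on the same strand in the annotation. That gene was 354 and 160.5 FPKM in dark wild type and light, 328 and 649 FPKM in dark wild type and det1-1, and 84.3 and 99.1 FPKM in dark wild type and pifq. Its dark wild type values differ between the tables, and their part in the FD1 values was not tested.

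The ferredoxin-NADP reductases LFNR1 and LFNR2 had low dark levels for this set. LFNR1 (AT5G66190) was 25.8 to 27.8 FPKM in the dark, 117.9 in light (4.24-fold), 333 in det1-1 (12.9-fold) and 169 in pifq (6.49-fold). LFNR2 (AT1G20020) was 12.5 to 16.5 FPKM in the dark, 98.2 in light (5.97-fold), 290.2 in det1-1 (19.0-fold) and 115 in pifq (9.21-fold). The copies ran in parallel, highest in det1-1, then pifq, then light.

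The 3 nuclear genes of the plastid ATP synthase were higher in 2 of 3 cases in light and 3 of 3 in each mutant. Beside these counts stand 12.4%, 17.3% and 12.9% of all genes in light, det1-1 and pifq. The median log2 ratios were 1.84, 2.85 and 3.03. ATPC1 (AT4G04640), the gamma subunit with the redox switch that turns the enzyme on in light, was 43.8 to 47.3 FPKM in the dark. It was 169.6 FPKM in light (3.58-fold), 317 in det1-1 (7.22-fold) and 376 in pifq (8.18-fold). ATPD (AT4G09650), the delta subunit, was 45.3 to 48.9 FPKM in the dark, 326 in light (6.68-fold), 348 in det1-1 (7.68-fold) and 690.3 in pifq (14.6-fold). ATPG (AT4G32260), a subunit of the peripheral stalk, was 162 to 174 FPKM in the dark, 194 in light (1.12-fold), 827 in det1-1 (5.12-fold) and 462 in pifq (2.72-fold). ATPG in light had the smallest log2 ratio, 0.16, among analysed members in that table.

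**Figure D3:**
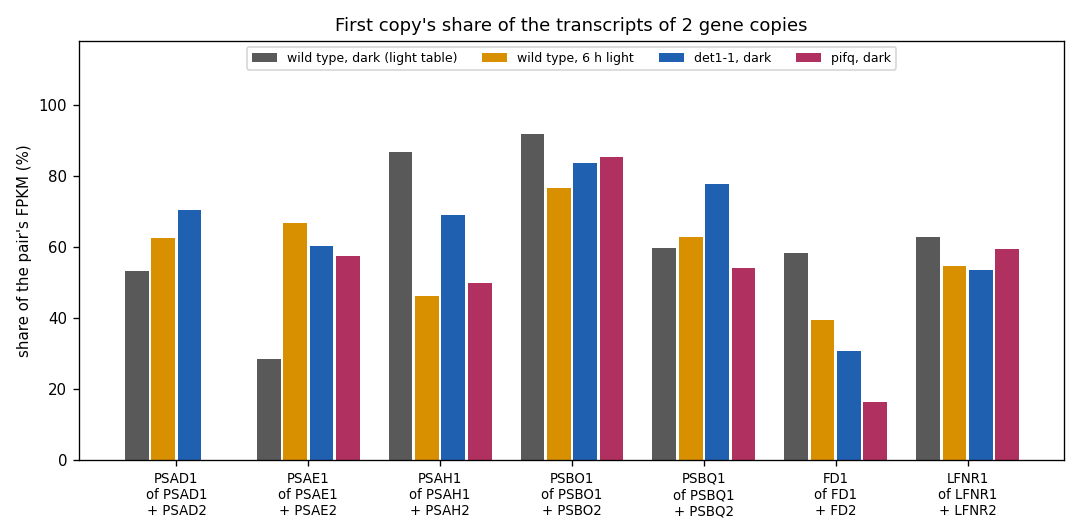
Share of the summed FPKM of 2 paralogous genes that belongs to the first copy (percent, vertical axis), in dark wild type, light, det1-1 and pifq. Bars are drawn where both copies have a row, and the PSBP and PETE pairs are left out. The dark wild type bars are those of the light table. The PSAE1 share is 28.4% in dark wild type and at least 57.6% in the other groups, and the FD1 share is 58.3% in dark wild type and 16.3% in pifq.

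Since FPKM is per length, the share of each copy in the sum of a pair can be set side by side within a group. PSAE1 made up 28.4% of PSAE in dark wild type, 66.7% in light and 60.2% in det1-1, and in the pifq table it went from 24.7% to 57.6%. PSAH1 went the other way, from 86.6% in the dark to 46.1% in light, 69.0% in det1-1 and 49.9% in pifq. FD1 made up 58.3% of leaf ferredoxin in the dark and 39.4%, 30.8% and 16.3% in light, det1-1 and pifq. The leading copy in the dark was therefore no longer the leading copy for PSAE and FD in all 3 groups, and for PSAH in light and, by a narrow margin, pifq. PSBO1 stayed ahead, at 91.8% in the dark and 76.7%, 83.7% and 85.4% in the 3 groups. LFNR1 went from 62.8% in the dark to 54.6% in light and 53.5% in det1-1, and in the pifq table from 67.5% to 59.4%. PSBQ1 was 59.6% in the dark, 62.8% in light, 77.7% in det1-1 and 54.2% in pifq. Of the 22 shares with values in a table, 12 differed from the dark by 10 percentage points or more.

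As sums of both copies, PSAE was 2.57-fold, 5.10-fold and 6.69-fold above dark wild type in light, det1-1 and pifq, and PSAH 3.43-fold, 5.13-fold and 9.94-fold. The PSBO sum was 2.26-fold, 8.05-fold and 8.42-fold, and the FD sum 4.17-fold, 5.50-fold and 4.47-fold. The sums lay above the dark in every group, also for PSAE in light and FD in pifq, where a single copy had a ratio near 1. The coding sequences of the PSAH copies were identical at 87.0% of bases, those of PSAE at 77.3% and those of FD at 79.6%. The PSAD and PSBQ pairs were at 86.3% and 76.5%. None of the 37 genes had more than 0.432% of its 32-base exon stretches elsewhere in the genome.

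The 3 comparisons share the dark wild type, so their values are set side by side for the 27 genes analysed in all of them. Of these, 20 were at least 2-fold higher in all 3, beside 5.08% of 13053 genes. The ratio was largest in pifq for 15 genes, in det1-1 for 12 and in light for 0, beside 34.7%, 30.6% and 34.6% of all genes. Among the 20 genes that were 2-fold higher in all 3, it was largest in pifq for 12, in det1-1 for 8 and in light for 0, beside 27.9%, 54.9% and 17.2% of the 663 genes with such values. Light gave the smallest ratio for 22 of 27, beside 36.3% of all genes. In det1-1 the log2 ratio exceeded that in light by 1 or more for 16 genes, beside 11.3% of all genes, and none was the other way, beside 8.14%. In pifq it exceeded that in light by 1 or more for 18 genes, beside 11.2%, and FD1 alone was the other way, beside 13.2%. Light was sampled at 6 h only, whereas the mutants differed from wild type over the whole of dark growth, so the sizes are values at these times.

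The complexes differed in which mutant stood further from the dark wild type. The ratio was larger in pifq than in det1-1 for 9 of 10 photosystem I genes, beside 49.2% of all genes, the exception being PSAO, whose ratios differed by 0.03 on the log2 scale. It was larger in det1-1 for 5 of 5 carrier genes, beside 50.8% of all genes, namely PETM, FD1, FD2, LFNR1 and LFNR2, though FD2 differed by only 0.02. Photosystem II was divided, with 5 genes larger in det1-1 and 4 in pifq, and of the ATP synthase genes ATPG was larger in det1-1 and the other 2 in pifq. The median of the det1-1 log2 ratio minus the pifq log2 ratio was -0.51 for photosystem I, 0.07 for photosystem II, 1.05 for the carriers and -0.18 for the ATP synthase, beside 0.01 for all genes. PETC, PETE1 and PETE2 are missing from this count because a table lacks them. On these same 27 genes the median log2 ratios in light, det1-1 and pifq were 1.82, 3.26 and 3.68 for photosystem I, and 1.96, 2.80 and 2.97 for photosystem II. For the carriers they were 2.08, 3.19 and 2.70, and for the ATP synthase 1.84, 2.85 and 3.03. In light the complexes thus had like medians, and the order among them differed between the mutants.

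**Figure D4:**
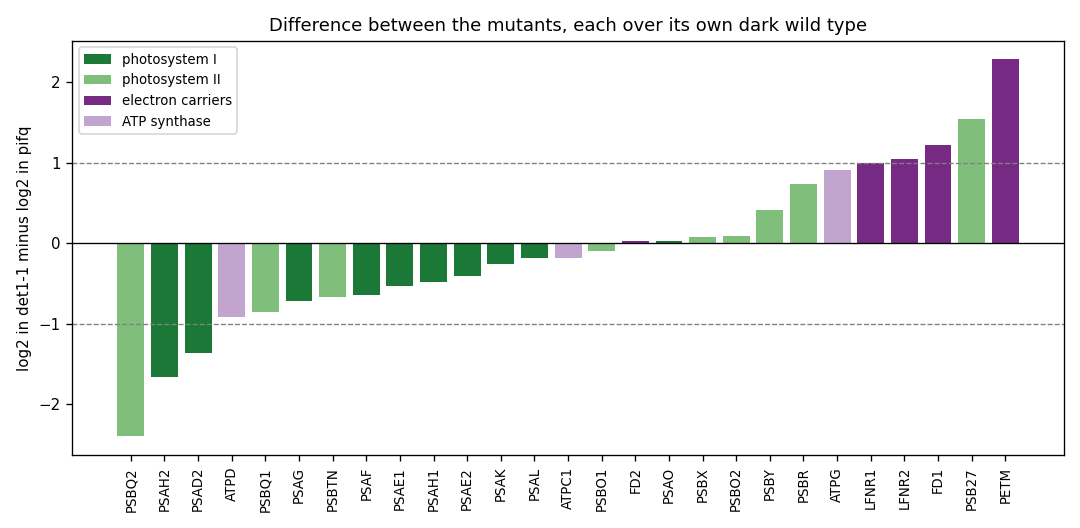
Difference of the det1-1 and pifq log2 ratios over dark wild type (det1-1 minus pifq, vertical axis) for the 27 genes analysed in every table. Genes are sorted by the difference and bars are coloured by complex. PETM (2.28) lies furthest towards det1-1 and PSBQ2 (-2.40) furthest towards pifq.

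Single genes differed between the mutants by more than the medians did. The det1-1 ratio was larger by 1 or more on the log2 scale for 4 genes, beside 11.7% of all genes: PETM by 2.28, PSB27 by 1.55, FD1 by 1.22 and LFNR2 by 1.05. The pifq ratio was larger by 1 or more for 3 genes, beside 6.04%: PSBQ2, PSAH2 and PSAD2, with differences of -2.40, -1.67 and -1.36. Counts of 4 and 3 among 27 are of the same order as these shares of all genes. PSBQ2, PSAH2 and PSAD2 are each the second gene of a pair. The first genes PSBQ1 and PSAH1 differed less, by -0.86 and -0.48, and PSAD1 had no row for pifq. In the other pairs analysed in every table the second genes did not reach -1. PSAE2 differed by -0.41, FD2 by 0.02, PSBO2 by 0.09 and LFNR2 by 1.05.

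Other nuclear genes of the same chain were less uniform. Of 60 listed genes for assembly, regulation and minor isoforms, 21 of 43 analysed were higher in light, 31 of 42 in det1-1 and 29 of 43 in pifq. Of all genes 12.4%, 17.3% and 12.9% were higher, the shares to set beside every count of these lists. The medians were 0.94, 1.69 and 1.37, and none was lower, beside 10.1%, 9.71% and 13.2% of all genes. Assembly and repair factors of photosystem II were higher in 8 of 13, 10 of 12 and 11 of 13 cases. MET1, a thylakoid protein of photosystem II assembly, was 5.73 and 35.6 FPKM in dark wild type and light, 5.31 and 85.5 with det1-1, and 5.57 and 33.8 with pifq. Photosystem I assembly factors were higher in 2 of 4, 4 of 4 and 5 of 5 cases, cytochrome b6f factors in 3 of 5, 5 of 5 and 2 of 4, and ATP synthase factors in 2 of 3, 2 of 3 and 1 of 1. CCB3, which helps attach haem to cytochrome b6, was 1.87 and 21.1 FPKM in dark wild type and light, 1.74 and 35.2 with det1-1, and 1.82 and 22.4 with pifq. LQY1, a zinc-finger protein of photosystem II repair, was 20.1 and 103 FPKM in dark wild type and light, 18.7 and 316 with det1-1, and 19.6 and 117 with pifq. The FtsH protease gene VAR1 was 27.7 and 198 FPKM in dark wild type and light, 25.6 and 188 with det1-1, and 26.9 and 92.9 with pifq.

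Genes for cyclic flow and thylakoid regulation were higher in 4 of 11 cases in light, 8 of 11 in det1-1 and 8 of 13 in pifq. KEA3, a thylakoid potassium-proton exchanger, was 1.02 and 26.2 FPKM in dark wild type and light, 0.942 and 21.7 with det1-1, and 0.986 and 8.10 with pifq. The isoforms of ferredoxin, reductase and other proteins found mainly outside leaves, or as minor forms, were higher in 2 of 7 cases in each comparison. Of all genes 12.4%, 17.3% and 12.9% were higher in light, det1-1 and pifq. The median of these isoforms in det1-1 was 0.16. FDC2, a minor ferredoxin-like protein, was an exception, at 9.15 and 41.8 FPKM, 8.48 and 41.2 FPKM, and 7.31 and 37.9 FPKM in light, det1-1 and pifq. By count, the members were higher in most cases and the isoforms of this list in fewer, though the members also include minor copies such as PSBO2 and FD1. Of 32 plastid-encoded genes of the chain, 2, 2 and 4 had rows and none could be analysed.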

How the data were processed

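The submitters' processing notes name TopHat, Cufflinks and the TAIR10 build. Versions, settings, strand handling and treatment of multiply mapped reads are not given in the sources used here. Deposited were 3 tables by the authors, which give 1 FPKM per gene for dark wild type and 1 for the compared group. The headers do not name the unit, which was taken from Cufflinks and the values. The deposited log2 ratio is 0 where the program made no comparison, so log2 ratios were computed from the authors' FPKM with no pseudocount. Each group pools 3 libraries into that value, and nothing in the labels says whether libraries came from separate cultures. No test was possible.

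Each table was scaled to the dark wild type of the light table (factors 1, 0.927 and 0.971) for the 1.5-fold tolerance only. Entries without a gene name (291, 291 and 231) and genes with several entries (533, 533 and 523) stayed out. Most other losses came from the rules on values above 0, 1 FPKM, the program's comparison and the tolerance. Together these left 14810, 14844 and 15014 analysed genes for light, det1-1 and pifq. The unnamed entries took 10.8%, 15.3% and 10.5% of all FPKM in the dark wild type and 7.25%, 1.79% and 1.05% in light, det1-1 and pifq.

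All 37 members are named. Of each other list, up to 2 analysed genes per comparison past 2-fold with the largest log2 ratio could be named. The members and lists were chosen with earlier results of these data known. Overlaps, promoters and paralog identity came from RefSeq TAIR10.1. Python 3.11.15, pandas 2.3.3 and numpy 2.4.6 were used. The steps that scale the tables, select genes and compute log2 ratios were tested on simulated data. The sequence, paralog and sensitivity steps were not tested in this way.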

Additional observations from a re-analysis of the deposited data

How the results depend on the processing

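No paired analysis was possible because the tables hold 1 value per group, and for the same reason no library could be left out. With 4-fold as the call, 16 of 31 genes were higher in light, beside 4.11% of all genes. At 2-fold it was 25, beside 12.4%. Leaving out the members that overlap another gene, a setting chosen after seeing the data, left 3 of 4 photosystem I genes with the larger ratio in pifq and 3 of 3 carriers with the larger ratio in det1-1, against 9 of 10 and 5 of 5, since fewer genes remained. Some settings could hardly change a member: none had repeated sequence to leave out or several entries to sum, and the deposited log2 is the same ratio. The totals that follow include these settings, so part of their agreement was fixed in advance. Over all settings, 305 of 308 counts and medians stayed within 1.5-fold of the reported value and no median reversed. Of 1174 values of single genes, 1172 stayed within 1.5-fold. The exception was PSBP2 in pifq, with a log2 ratio of 0.85 when 1 FPKM was added to both groups and 0.31 when 5 FPKM was added, against 1.55. With no tolerance between tables, 27 of 33, 32 of 32 and 32 of 34 genes were higher in light, det1-1 and pifq. The share of all genes was counted only with the tolerance, at 12.4%, 17.3% and 12.9%. Without replicate values, differences between complexes or mutants cannot be set against the spread between libraries, and the depth behind low values is unknown.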
